A study of Mus musculus with 24 samples.

Results

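The 38 genes described here encode parts of the synapse: 17 act on the postsynaptic side as scaffolds, calcium signalling proteins and neuroligins, and 21 act on the presynaptic side as neurexins, synapsins, synaptotagmins, SNARE proteins and active zone proteins. The sides were assigned from general knowledge, and some proteins, such as those of Dlg1, Syt3 and Syt7, act on both. Their CpGs were taken from a table of reduced representation bisulfite sequencing (RRBS), which reads cytosine methylation near MspI cut sites, as all rows lying inside the GENCODE M21 span of a listed gene or within 2 kb of it. This gave 2599 of the 694379 rows of the table, 1210 at presynaptic and 1389 at postsynaptic genes, where 1 row is 1 cytosine on 1 strand and its value is the percent of reads that were methylated. A row within 1 kb of any annotated transcript start of its gene was called promoter (989 rows), and the other rows were called body (1610 rows). All 38 genes had promoter rows and 36 had body rows, the exceptions being Homer3 and Snap25.

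The samples were micro-dissected dentate gyri of 24 female C57BL/6JRj mice without a genetic modification named in the labels, 8 in each of 3 groups. Young STD mice were 3 months old and kept in standard cages, aged STD mice were 17 months old and kept in the same way, and aged ENR mice were 17 months old and had spent their last 3 months, from an age of 14 months, in an enriched environment (ENR), a large cage shared by a group with objects that are rearranged. Aging was measured as aged STD minus young STD, and the effect of late ENR as aged ENR minus aged STD. Both contrasts use the same aged STD mice, so their values are set side by side below and were not counted against each other. No young mice in ENR were included in this table.

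At an excitatory synapse, SNARE proteins on vesicle and membrane drive release when synaptotagmins bind calcium, at sites laid out by active zone proteins such as Bassoon, Piccolo and RIM. Neurexins on the axon bind neuroligins on the dendrite. Behind the neuroligins of excitatory synapses, the DLG, DLGAP, SHANK and HOMER proteins form a layered scaffold that holds the receptors. In the dentate gyrus, granule neurons carry both sides of this machinery, with inputs from the entorhinal cortex and outputs along the mossy fibers. Methylation is commonly low at CpG-rich starts of expressed genes and high along the rest of the gene.

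Each mouse had 1186 to 2190 of the 2599 CpGs covered (median 1572.5), of 308751 to 608017 CpGs in the whole table, and 47 of the 2599 were covered in all 24 mice. Read numbers per CpG are unknown, and 81.0% of the members' values were exactly 0 or 100. At body CpGs with a mean between 10 and 90%, 61.8% of the values were 0 or 100. Among 223 CpGs read on both strands, the strands of a mouse differed by a median of 0 points and 74.9% of 2582 pairs lay within 10 points, but at the 68 of these with a mean between 10 and 90% the median difference was 18 points. Values of single CpGs therefore carry a large error, and mean values over a gene carry less. The tissue holds neurons and glia, and a different mixture of cells and a change of methylation within cells cannot be told apart in it. Methylation values give no expression of cell type markers, so the tissue label could not be checked in that way.

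The following stretches are the ones the results below return to. They are read on the plus strand of GRCm38 (mm10), in lower case with the measured CpGs in capitals. The first 3 show the range of levels in CpG-rich sequence: the 250 bases upstream of the start of Pclo (chr5:14514668-14514917, 17 of 25 CpGs measured, mean level 1.06%), part of a coding exon of Rims1 with the intron beside it (chr1:22533371-22533608, 20 of 27 CpGs measured, 5.16%) and an intron of Dlg2 (chr7:90864363-90864471, 7 of 10 CpGs measured, 92.5%).
Pclo: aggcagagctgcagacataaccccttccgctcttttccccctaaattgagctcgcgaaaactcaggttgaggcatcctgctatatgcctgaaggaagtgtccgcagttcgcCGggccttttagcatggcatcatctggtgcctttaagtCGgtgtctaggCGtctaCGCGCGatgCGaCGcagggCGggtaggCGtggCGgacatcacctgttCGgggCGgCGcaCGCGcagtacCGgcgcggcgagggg
Rims1: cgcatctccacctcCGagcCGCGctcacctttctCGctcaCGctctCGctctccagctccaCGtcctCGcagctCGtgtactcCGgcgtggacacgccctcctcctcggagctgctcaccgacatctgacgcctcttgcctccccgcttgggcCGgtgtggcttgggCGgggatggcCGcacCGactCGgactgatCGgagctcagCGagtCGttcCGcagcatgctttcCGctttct
Dlg2: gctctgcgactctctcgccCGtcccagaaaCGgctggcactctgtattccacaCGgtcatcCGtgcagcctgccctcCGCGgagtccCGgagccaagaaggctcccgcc
The next 4 hold differences between groups that are described below, each in an intron: Rph3a (chr5:121007282-121007391), Dlg4 (chr11:70043228-70043348), Dlgap3 (chr4:127178156-127178262) and Nrxn3 (chr12:88984704-88984930).
Rph3a: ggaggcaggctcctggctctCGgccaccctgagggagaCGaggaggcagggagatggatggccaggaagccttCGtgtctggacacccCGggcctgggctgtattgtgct
Dlg4: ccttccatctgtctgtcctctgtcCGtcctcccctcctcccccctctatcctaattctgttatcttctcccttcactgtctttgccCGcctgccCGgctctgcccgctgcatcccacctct
Dlgap3: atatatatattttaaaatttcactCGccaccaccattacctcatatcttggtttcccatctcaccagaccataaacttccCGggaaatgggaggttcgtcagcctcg
Nrxn3: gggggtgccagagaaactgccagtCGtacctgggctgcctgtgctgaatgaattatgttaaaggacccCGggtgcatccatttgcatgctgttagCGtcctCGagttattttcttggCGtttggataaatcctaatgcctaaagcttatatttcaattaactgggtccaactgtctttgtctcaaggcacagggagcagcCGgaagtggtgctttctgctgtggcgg

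The starts of the synaptic genes were close to unmethylated, and their bodies were spread over the whole scale. Of the members' promoter rows, 86.9% had a mean under 10%, beside 85.5% at promoters of all protein-coding genes. Promoter values of a gene could be compared between groups for 30 members, which needed at least 4 covered CpGs in at least 5 mice of each group, and the median of these 30 promoters was 3.04%, beside 2.34% over all 13946 genes. Of the 30, 24 (80%) lay under 10%, beside 77.5% of all genes. Bodies could be compared for 29 members and had a median of 43.8%, beside 54.7% over all 10455 genes and 59.8% over the protein-coding genes among them. Both regions were comparable for 21 genes. Promoters could not be compared for Camk2a, Homer2, Nrgn, Stx1a, Syn2, Syn3, Syt7 and Unc13a, and bodies could not be compared for Cplx1, Dlg1, Dlg4, Erc1, Homer3, Nlgn2, Snap25, Syt3 and Vamp2. Their levels over all mice are still given below.

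**Figure D1:**
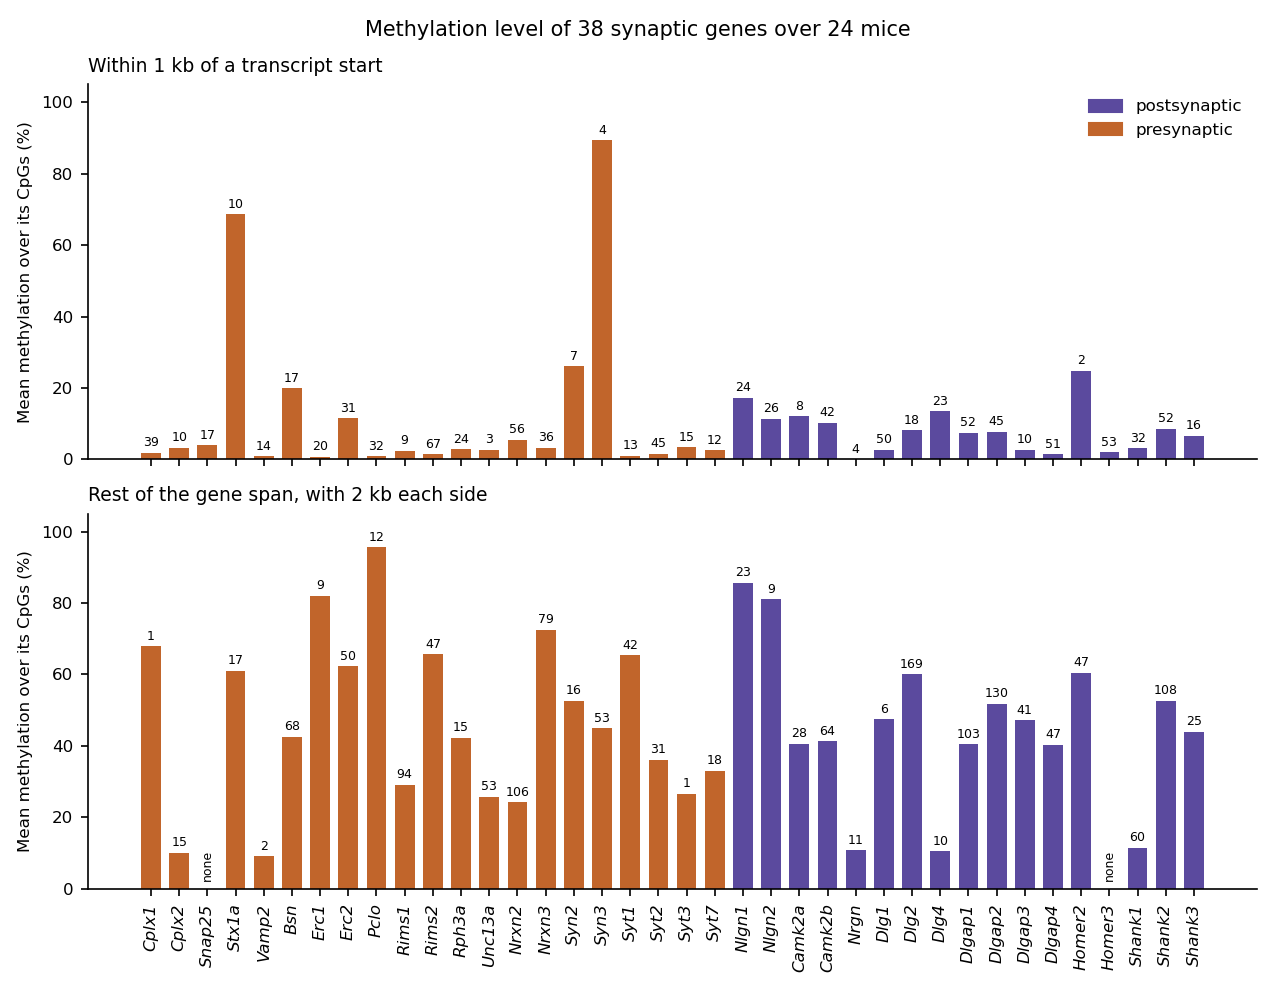
Mean methylation in percent over all mice of the promoter rows and of the body rows of each of the 38 genes, grouped by role. Most promoter points lie under 10%, while body points run from 9.0% (Vamp2) to 95.6% (Pclo).

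Among the postsynaptic scaffolds, promoter levels ran from 1.38% to 24.8% and body levels from 10.4% to 60.5%. Shank1, Shank2 and Shank3, which form the deep layer of the postsynaptic density, had promoter levels of 3.09%, 8.57% and 6.54% and body levels of 11.4%, 52.6% and 43.9%. The 4 DLGAP genes, whose proteins tie the DLG layer to SHANK, were closer together, with promoters of 7.50% (Dlgap1), 7.72% (Dlgap2), 2.69% (Dlgap3) and 1.38% (Dlgap4) and bodies of 40.4%, 51.8%, 47.2% and 40.3% in the same order. The DLG genes, which encode PDZ scaffolds under the membrane, had promoters of 2.59% (Dlg1), 8.10% (Dlg2) and 13.5% (Dlg4) and bodies of 47.4%, 60.1% and 10.4%. Homer2 and Homer3, which link SHANK to glutamate receptors, had promoters of 24.8% on 2 CpGs and 1.97% on 53 CpGs.

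The calcium signalling genes included the lowest promoter of all. Nrgn, which encodes the calmodulin-binding protein neurogranin, was at 0% on 4 promoter CpGs and at 10.7% over 11 body CpGs. Camk2a and Camk2b, the subunits of calcium/calmodulin-dependent kinase II, had promoters of 12.0% and 10.3% and bodies of 40.6% and 41.2%. The neuroligins Nlgn1 and Nlgn2 had the highest bodies on the postsynaptic side, at 85.6% and 81.0%, above promoters of 17.3% and 11.3%.

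On the presynaptic side, the neurexins differed from each other in the body, at 24.2% for Nrxn2 and 72.5% for Nrxn3, above promoters of 5.40% and 3.20%. The synaptotagmins, the calcium sensors of release, had promoters of 1.05% (Syt1), 1.504% (Syt2), 3.39% (Syt3) and 2.57% (Syt7), and bodies of 65.4%, 36.1%, 26.6% (1 CpG) and 33.1%. The SNARE genes Snap25 and Vamp2 had promoters of 3.92% and 0.83%, and the complexins Cplx1 and Cplx2, which hold SNARE complexes before release, of 1.85% and 3.18%. Bodies of Cplx2 and Vamp2 were low, at 10.04% and 9.0%, the latter on 2 CpGs, while the single body CpG of Cplx1 was at 67.9%.

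The active zone and priming genes held the highest body of all. Pclo, which encodes the active zone protein Piccolo, was at 95.6% over 12 body CpGs, all of them over 90%, and at 0.88% over its 32 promoter CpGs. The other genes of this group had bodies of 82.1% (Erc1), 65.7% (Rims2), 62.2% (Erc2), 42.6% (Bsn), 42.2% (Rph3a), 29.1% (Rims1) and 25.7% (Unc13a). Their promoters were at 0.66% (Erc1), 1.35% (Rims2), 11.5% (Erc2), 19.9% (Bsn), 2.86% (Rph3a), 2.47% (Rims1) and 2.74% (Unc13a). These are genes for scaffolds that hold calcium channels and vesicles at the release site (ERC, RIM and Bassoon), a binding partner of the vesicle GTPase RAB3 (rabphilin, from Rph3a) and a priming factor (Unc13a).

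The 3 highest promoters were Syn3 (89.4%, 4 CpGs), Stx1a (68.7%, 10 CpGs) and Syn2 (26.1%, 7 CpGs), and the 3 lowest were Nrgn, Erc1 and Vamp2. The synapsins Syn2 and Syn3 encode proteins that tether vesicles, and Stx1a encodes syntaxin 1A, the SNARE protein of the presynaptic membrane. In all 3 high promoters the methylated CpGs lay at a transcript start other than the outermost start of the gene. For Syn2 the gene start was at 5.14% (5 CpGs) and the other start at 78.4% (2 CpGs). For Stx1a 1 CpG at the gene start was at 14.4% and 9 CpGs at other starts averaged 74.7%, and for Syn3 all 4 CpGs lay at other starts.

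The same order held for most members with CpGs at both kinds of start. Among 11 presynaptic genes the other starts were higher in 11 (median of genes 1.67% at the gene start and 5.51% at other starts), and among 12 postsynaptic genes they were higher in 11 (1.70% and 13.2%). Beside Syn2 and Stx1a, the widest gaps were in Dlgap2 (1.78% and 90.8%) and Bsn (10.8% and 87.6%), with 3 and 2 CpGs at other starts. Nlgn2 (1.66% and 43.4%), Nlgn1 (0.31% and 27.5%), Camk2b (1.74% and 24.2%) and Erc2 (1.57% and 23.5%) followed, with 6, 15, 16 and 14 CpGs there. Some of the other genes also had few such CpGs, as Syt7 with 2 and Unc13a with 1. Shank2 was the exception, with 92.9% on 3 CpGs at its outermost start and 3.41% on 49 CpGs at other starts. At the gene start itself, 17 of 20 presynaptic and 12 of 14 postsynaptic genes were under 5%.

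Methylation was higher farther from the nearest start on both sides of the synapse. Presynaptic and postsynaptic CpGs were at 6.37% and 4.22% within 200 bp of a start, at 7.53% and 11.6% between 500 and 1000 bp, and at 30.5% and 47.8% between 2 and 5 kb, beside 5.26%, 15.7% and 53.2% for all protein-coding genes. Between 20 and 100 kb the levels were 69.8% and 54.1%, beside 66.3%. Beyond 100 kb the presynaptic CpGs were at 36.8% (172 CpGs of 6 genes), while the postsynaptic ones were at 52.8% and those of all coding genes at 69.5%. Without Rims1 the presynaptic value was 56.8% (102 CpGs), and without Rims1 and Syn3 it was 73.8% (70 CpGs of 4 genes).

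**Figure D2:**
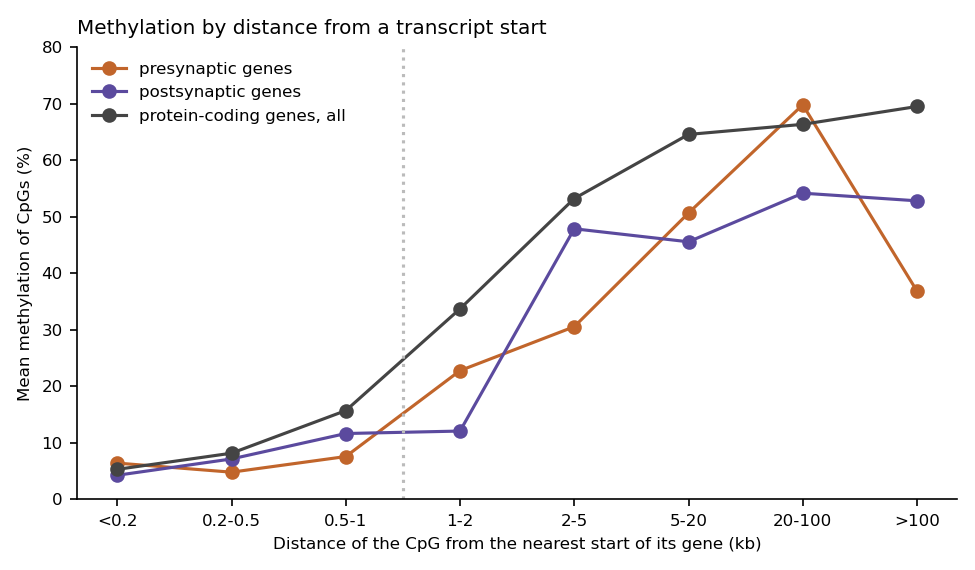
Mean methylation in percent of presynaptic, postsynaptic and all protein-coding CpGs by distance from the nearest transcript start of the gene. The curves start near 5% and rise to over 50% by 20 to 100 kb, and the presynaptic curve drops to 36.8% beyond 100 kb.

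Most of the measured Rims1 body was CpG-dense sequence in and around a coding exon. Of its 94 body CpGs, 62 lay in sequence with at least 15 CpGs within 100 bases on each side, 47 of them exonic, a median of 100.7 kb from the nearest start. These averaged 6.73% (lowest, median and highest mouse -8.92, 6.06 and 12.6%, n = 24), and 49 of the 62 had a mean under 10%. The other 32 body CpGs averaged 72.3% (56.3, 73.7 and 84.1%), so no mouse overlapped between the dense sequence and the rest of the body. Values per mouse are averages of deviations from each CpG's own mean, added to the level of the gene, which allows every mouse to be compared on different CpGs and lets a value fall slightly under 0 or over 100%.

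CpG-dense body sequence was low in most members and high in others. Shank1 (22 dense CpGs, all exonic) was at 9.80%, close to the 12.3% of the rest of its body. Shank3 (12, all exonic) was at 19.0%, beside 66.9% in the rest of the Shank3 body. Dlgap1 (13, exonic) was at 26.8% and Dlgap2 (10) at 1.40%. The Dlgap1 level pools unlike groups: 8 of its dense CpGs form a run that was picked for its lower values under ENR. That run averaged 15.4% in young STD (n = 5), 66.9% in aged STD (n = 3, 20.5 to 99.7%) and 20.6% in aged ENR mice (n = 3). In Syn3, 11 dense CpGs at 1.36% all lay within 1 kb of the start of another gene. Against this, 7 dense CpGs in an intron of Dlg2, 226 kb from the nearest start, were at 92.5% (71.0, 97.9 and 100% over the 13 covered mice), and 4 dense exonic CpGs of Shank2 were at 96.7%. The highest mouse in the dense Rims1 sequence (12.6%) lay below the lowest mouse in the dense Dlg2 intron (71.0%). The Dlg2 stretch was picked as the highest among members with at least 5 dense CpGs, so this separation follows from the choice. Over all members, body methylation went from 60.6% at CpGs with 1 to 4 CpGs in the window to 48.0%, 30.6%, 21.1% and 10.2% with 5 to 9, 10 to 14, 15 to 19 and 20 or more, beside 67.8%, 57.8%, 35.0%, 11.1% and 4.29% for all coding genes.

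Aging changed no synaptic promoter past the threshold. Each gene was tested with limma, a linear model with moderated variance, over all genes of the region, and p-values were adjusted by Benjamini-Hochberg. With an adjusted p under 0.05, 0 of 30 member promoters were called, as were 0% of the 13946 genes, and the smallest adjusted p among members was 0.907. At an unadjusted p under 0.05 there were 2 of 30 (6.67%), beside 5.2% of all genes, which is near the background, and the count was 1 without young STD replicate 2 or 7 or aged STD replicate 2 or 3. Of the 30 promoters, 16 were higher and 14 lower in aged STD mice. Presynaptic promoters were higher in 7 and lower in 9, and postsynaptic ones were higher in 9 and lower in 5.

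Dlgap2 had the smallest p among the promoters. Its values were 4.91, 6.58 and 7.46% for young STD (lowest, median and highest of 8 mice), 6.07, 8.78 and 11.9% for aged STD and 5.58, 7.51 and 10.9% for aged ENR mice. Aged STD mice were shifted upward, with 6 of 8 above every young mouse, but the lowest of them lay within the young range. The difference was 2.48 ± 0.89 points (SE, limma, p = 0.0108, adjusted p = 0.907), and an exact two-sided permutation test over mice gave p = 0.00917, unadjusted. The difference was 1.26 points with a plain mean over covered CpGs and 1.41 with a window of 2 kb.

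Dlgap1, its close relative, went the other way on 52 promoter CpGs. Young STD mice had 5.87, 7.85 and 16.1%, aged STD mice -1.29, 6.44 and 9.99%, and aged ENR mice 4.61, 7.05 and 11.5%. The groups overlapped widely and the highest young mouse stood above all others. The difference was -3.81 ± 1.65 points (SE, limma p = 0.0305, adjusted p = 0.907), with p = 0.0738 in the exact permutation test, and it was -0.26 points with a window of 500 bp. The next smallest p belonged to Syt3, at 2.32 ± 1.94 points (limma adjusted p = 0.913, exact permutation p = 0.131), a value that was 1.37 without aged STD replicate 5 and changed sign to -2.68 when the promoter was widened to 2 kb on each side.

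ENR in old age likewise called no member promoter. With limma, 0 of 30 passed an adjusted p under 0.05, beside 0.0143% of all genes, and 1 of 30 (3.33%) an unadjusted p under 0.05, beside 4.4%. The smallest adjusted p was 0.944, and 14 promoters were higher and 16 lower. The gene with an unadjusted p under 0.05 was Dlg2, which encodes the scaffold PSD-93. Young STD mice had 1.21, 5.60 and 17.8%, aged STD mice -3.56, 5.19 and 13.1%, and aged ENR mice 6.18, 10.1 and 18.6%. Every aged ENR mouse lay above the aged STD median, and the ranges overlapped. The difference was 6.04 ± 2.61 points (SE, 95% interval 0.64 to 11.4, limma p = 0.0300, adjusted p = 0.944), with p = 0.0458 in the exact permutation test, and it rests on 18 CpGs. With a promoter window of 500 bp it was 9.34 points. Its limma p was over 0.05 without aged STD replicate 1, 7 or 8 or aged ENR replicate 3, 4 or 7. Dlgap4 (1.16 ± 0.77 points, exact permutation p = 0.1905) and Syt2 (1.16 ± 0.82 points, p = 0.103, but 0.65 points with a window of 2 kb) followed.

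Aged ENR mice were also set against young mice, a contrast in which age and housing both differ. With limma, 0 of 30 promoters were called (0.0143% of all genes), and 1 of 30 had an unadjusted p under 0.05 (4.7% of all genes). That 1 was Dlgap4, at 1.70 ± 0.77 points (adjusted p = 0.955), and the count was 0 without young STD replicate 2, 4, 5 or 7 or aged ENR replicate 1, 3 or 6.

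The precision of the promoters limits how large a missed change could be. The SE of a difference had a median of 1.66 points and ran from 0.58 (Rims2) to 6.62 (Bsn). The 95% interval of the aging difference lay within 5 points of 0 for 16 of 30 promoters and within 10 points for 29, and that of the ENR difference for 17 and 28.

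Gene bodies gave larger differences with larger errors, and none was called with limma either. For aging, 0 of 29 passed an adjusted p under 0.05 (0% of 10455 genes), and 3 of 29 (10.3%) had an unadjusted p under 0.05, beside 5.91%. For ENR, 0 of 29 were called (0%), and 3 of 29 (10.3%) had an unadjusted p under 0.05, beside 4.63%. For aged ENR against young, 0 of 29 were called (0%), and 4 of 29 (13.8%) had an unadjusted p under 0.05, beside 5.83%. The smallest adjusted p was 0.356, 0.982 and 0.741 in these 3 contrasts. Each of these shares rests on 3 or 4 genes, and the ENR count turned on single mice: with limma it was 0 without aged STD replicate 5, without aged STD replicate 7 or without aged ENR replicate 3, and 1 without young STD replicate 6, aged STD replicate 1, 3 or 6, or aged ENR replicate 1, 2, 5 or 7. The aging count was 5 without young STD replicate 1.

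The direction was uneven under ENR. For aging, 13 bodies were higher and 16 lower, with a median difference of -0.61 points, beside -0.42 over all genes. For ENR, 8 were higher and 21 lower, with a median of -1.38 points, beside 4749 higher and 5700 lower and a median of -0.35 over all genes. Presynaptic bodies were higher in 5 and lower in 11, and postsynaptic bodies higher in 3 and lower in 10. Averaged over the 14 presynaptic genes with a value in every mouse, body levels were 43.4, 45.4 and 49.9% for young STD, 41.7, 45.6 and 47.2% for aged STD and 39.4, 42.6 and 47.8% for aged ENR mice. Over 11 postsynaptic genes they were 47.1, 48.4 and 52.4%, 44.1, 49.0 and 52.1%, and 44.1, 46.9 and 47.7%. The groups overlapped on both sides of the synapse, and the lowest aged STD value came from replicate 5 in both.

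**Figure D3:**
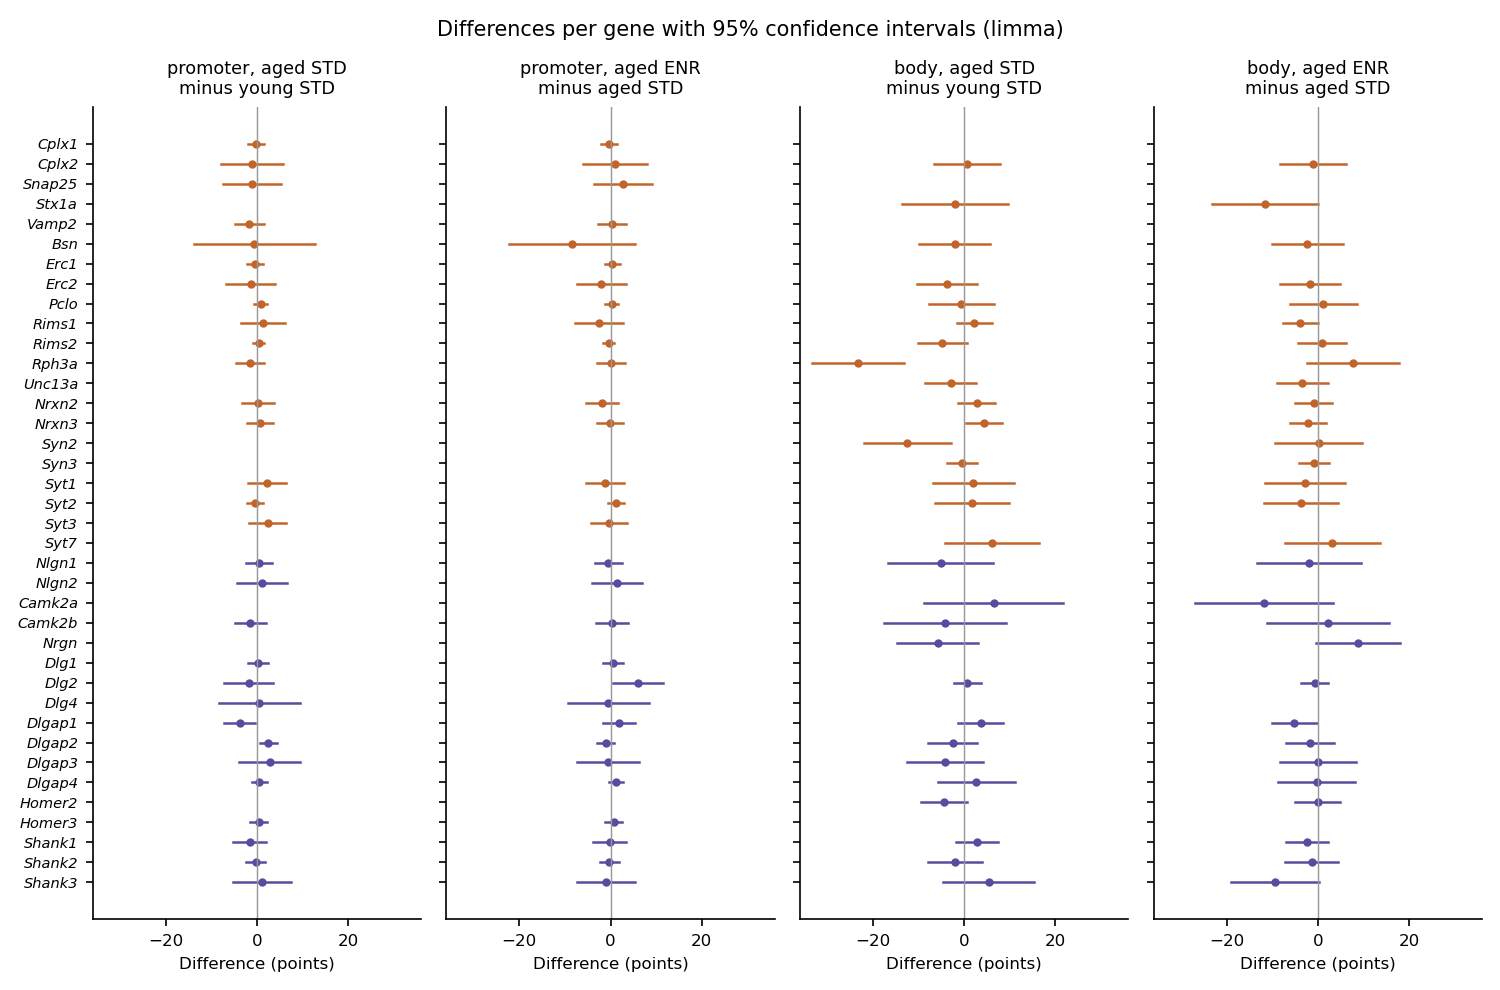
Aging and ENR differences in points for the promoter and body of each tested member, with 95% intervals from limma. Promoter intervals exclude 0 for Dlgap2 and Dlgap1 in aging and Dlg2 in ENR before adjustment, and the body of Rph3a in aging (-23.3) lies farthest from 0.

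The body of Rph3a, the gene of rabphilin, showed the largest aging difference among members. Young STD mice had 36.4, 55.8 and 69.0% (lowest, median and highest of 8), aged STD mice 24.04, 34.3 and 42.7% (7 mice, since 1 had too few covered CpGs) and aged ENR mice 25.9, 39.2 and 56.0% (8 mice). Aged STD mice were lower, with 6 of 7 below every young mouse, and aged ENR mice overlapped both groups. The aging difference was -23.3 ± 4.83 points (SE, 95% interval -33.3 to -13.3). Its limma p of 8.09e-05 was the smallest of 10455 bodies and gave an adjusted p of 0.356, and an exact two-sided permutation test over mice gave p = 0.000777, unadjusted. The ENR difference was 7.75 ± 4.83 points (limma adjusted p = 0.982), and aged ENR mice were 15.5 points below young mice (adjusted p = 0.741).

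The Rph3a value rests on 15 intronic CpGs, of which a mouse had at least 4. Of these, 11 were lower and 2 higher in aged STD mice, and 6 were lower by over 25 points. The printed Rph3a stretch, picked after its values were seen, holds 5 of these rows at 4 CpGs, and all 5 had lower means in aged STD than in young STD mice. The aging differences were -30.4 points at 121007302 (6 aged STD mice) and -41.0, -20.8, -16.3 and -55.5 points at 121007303, 121007321, 121007356 and 121007371 (4 aged STD mice each), each with a limma adjusted p of 1. The ENR differences at the same rows had no common sign, at -11.8, 11.5, 1.99, -8.14 and 16.2 points. Mice overlapped: averaged over the 3 rows that differed by over 25 points in aging, the lowest young mouse was at 16.4% and the highest aged STD mouse at 58.2%.

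Syn2 and Nrxn3 were the other bodies with an unadjusted p under 0.05 in aging. Syn2 (synapsin II) had 46.4, 57.3 and 77.1% for young STD, 35.8, 49.0 and 54.6% for aged STD and 28.1, 49.6 and 61.0% for aged ENR mice. Both aged groups were shifted down and overlapped the young range. The aging difference was -12.5 ± 4.62 points (SE, limma p = 0.0129, adjusted p = 0.723, exact permutation p = 0.0191), and 4 of its 16 CpGs lie within Timp4, a gene nested in an intron. Nrxn3 had 66.3, 70.8 and 76.0%, 70.0, 74.9 and 83.0%, and 67.4, 73.1 and 77.3% in the same order of groups. It was higher in aged STD mice by 4.29 ± 1.93 points (limma p = 0.0361, adjusted p = 0.812, exact permutation p = 0.0308), with 44 CpGs higher and 25 lower of 79, and by 1.67 points with a plain mean over covered CpGs.

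Under ENR, the bodies with the smallest p were lower in aged ENR than in aged STD mice. Dlgap1, at 33.4, 39.9 and 49.3% for young STD, was at 32.9, 45.3 and 49.2% for aged STD and at 33.2, 38.3 and 44.0% for aged ENR mice, a difference of -5.16 ± 2.38 points (limma p = 0.0404, adjusted p = 0.982, exact permutation p = 0.0432). Rims1 was at 21.7, 28.9 and 33.4%, 26.7, 30.8 and 34.0%, and 21.4, 27.2 and 32.9%, a difference of -3.87 ± 1.84 points (limma p = 0.0467, exact permutation p = 0.0466). Stx1a was at 47.9, 68.0 and 87.3%, 48.8, 68.3 and 76.9%, and 41.3, 53.6 and 73.0%, a difference of -11.6 ± 5.59 points (limma p = 0.0487, exact permutation p = 0.0434). The Dlgap1 difference was -3.10 points with a promoter window of 500 bp, and the Rims1 difference was -0.36 points with a plain mean over covered CpGs. In all 3 genes the aged groups overlapped, and the limma p of each was over 0.05 without aged STD replicate 5, aged STD replicate 7 or aged ENR replicate 3, and in single genes without other mice too. Of their CpGs, 51 of 103, 40 of 94 and 11 of 17 were lower in aged ENR mice, and 44, 27 and 3 were higher.

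**Figure D4:**
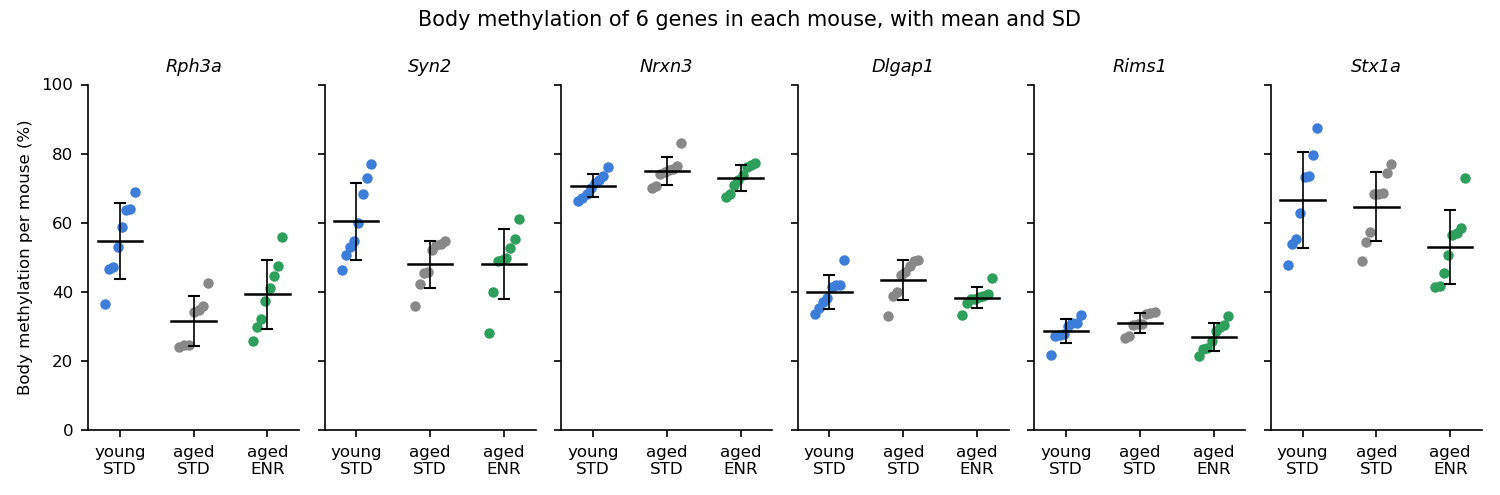
Body methylation in percent of each mouse for the genes named in aging or ENR, with group means and SD. Rph3a separates most of the aged STD mice from the young mice, and the other genes overlap.

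Camk2a (-11.8 ± 7.32 points), Shank3 (-9.37 ± 4.62) and Nrgn (8.81 ± 4.43) also had large differences under ENR with limma, each with an unadjusted p above 0.05 and an adjusted p of 0.982. The SE of a body difference ran from 1.46 points (Dlg2, 169 CpGs) to 7.32 (Camk2a, 28 CpGs), with a median of 3.52. The interval lay within 10 points of 0 for 15 of 29 bodies in aging and 17 in ENR, and within 5 points for 2 in each, so changes of several points could not be seen in most bodies.

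Single CpGs were tested across all 694379 rows. Among the 2599 member CpGs, 0 passed limma's adjusted p under 0.05 with a difference over 25 points in aging (0.00475% of all rows), in ENR (0.00432%) or in aged ENR against young (0.00504%). The unadjusted p was under 0.05 at 80 (3.08%), 68 (2.62%) and 76 (2.92%) of them, beside 2.23%, 1.90% and 2.18% of all rows. A difference of means over 25 points, whatever its p, was found at 322 (12.4%) in aging, beside 9.16% of all rows, at 318 (12.2%) in ENR, beside 8.33%, and at 290 (11.2%) in aged ENR against young, beside 8.42%.

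The shares differed between promoters and bodies. In bodies the share over 25 points was 17.1% in aging and 16.6% in ENR, beside 13.1% and 12.1% at bodies of all protein-coding genes, and in promoters it was 4.75% and 5.06%, beside 3.93% and 3.43%. Member bodies also held more CpGs of intermediate level: 55.1% had a mean between 10 and 90%, beside 42.1% in coding bodies. Postsynaptic bodies were at 18.6% and 18.2% and presynaptic ones at 15.2% and 14.8%. In aging 162 CpGs were higher and 160 lower, and in ENR 127 were higher and 191 lower. Most of these CpGs were covered in few mice: with at least 5 mice per group required, 856 CpGs remained and 56 (6.54%), 46 (5.37%) and 49 (5.72%) of them were over 25 points in the 3 contrasts, beside 5.15%, 4.72% and 4.82% of the 223328 rows that met the same requirement.

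By the smallest p among those 856 CpGs, 4 were named, each with an adjusted p of 1. The CpG of Dlgap3 at 127178237, in an intron 5357 bp from the nearest start, was covered in all 24 mice. It was at 30.1, 47.0 and 88.1% for young STD (lowest, median and highest), 0, 48.0 and 75.5% for aged STD and 55.0, 97.0 and 100% for aged ENR mice. Aged ENR mice were higher, with 6 of 8 above every aged STD mouse. The difference was 44.2 points (limma p = 0.000944, exact permutation p = 0.00264, unadjusted). The neighbouring measured CpG in the printed Dlgap3 stretch, 56 bases away, did not follow it, at 73.9, 82.2 and 82.7% in the 3 groups.

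The CpG of Dlg4 (PSD-95) at 70043315, at -882 bp from a transcript start within the gene, was also covered in all 24 mice. It was at 21.4, 42.3 and 51.2% for young STD, 0, 24.4 and 44.0% for aged STD and 13.4, 23.3 and 32.7% for aged ENR mice. Both aged groups were lower than most young mice, and each overlapped the young range. The aging difference was -17.0 points (limma p = 0.00568, exact permutation p = 0.0210). Its neighbours in the printed Dlg4 stretch were also lower in both aged groups than in young mice: 70043253 had means of 38.9, 20.4 and 20.6% in the young STD, the aged STD and the aged ENR group, and 70043323 of 42.0, 24.99 and 23.2%.

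The intronic CpG of Nrxn3 at 88984821 was covered in 5 mice per group. It averaged 26.7% for young STD, 99.0% for aged STD and 21.8% for aged ENR mice, with values of 0 to 68.2%, 95.1 to 100% and 0 to 100%. Aged STD mice lay above all young mice. The aging difference was 72.3 points (limma p = 0.00411, exact permutation p = 0.00794) and the ENR difference -77.2 (limma p = 0.00264, exact permutation p = 0.0476), both against the same 5 aged STD mice. An intronic CpG of Camk2a, 14242 bp from the nearest start, averaged 8.33% (n = 6), 73.7% (n = 5) and 16.8% (n = 6), with an aging difference of 65.4 points (limma p = 0.00290, exact permutation p = 0.0281) and an ENR difference of -56.9 (limma p = 0.00735, exact permutation p = 0.0476). Aged STD mice of Camk2a also reached 0, and aged ENR mice of Nrxn3 reached 100. Not all neighbours followed: in Camk2a the aging differences of the other 8 CpGs within 100 bases ran from -36.1 to 49.0 points. In Nrxn3 those of the other 6 rows ran from 0.29 (88984773) to 57.8 points (88984772). These 2 rows are the 2 strands of 1 CpG, so that range reflects a difference between strands.

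**Figure D5:**
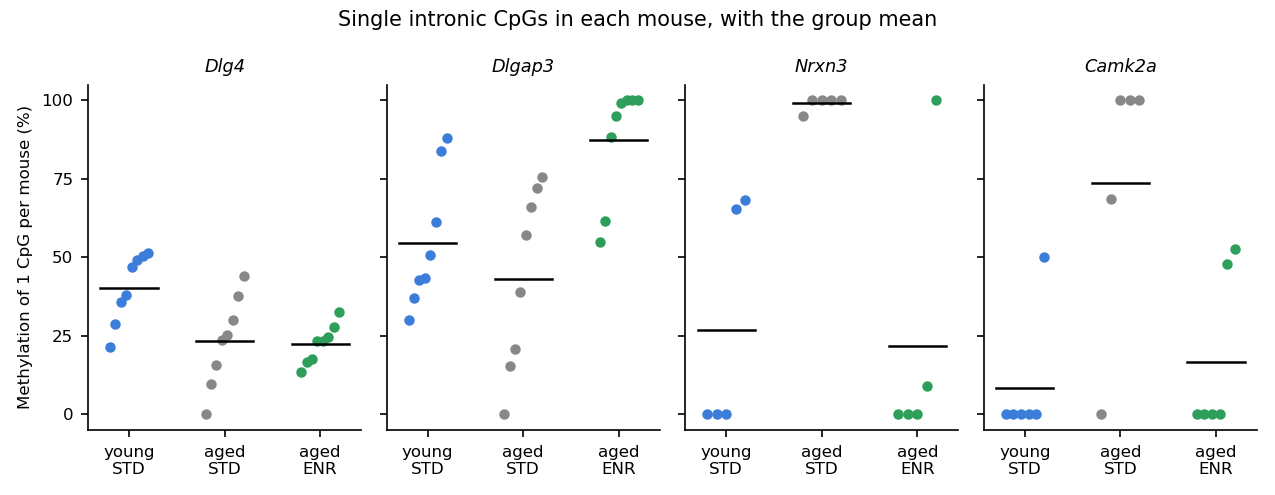
Methylation in percent of each covered mouse at the 4 named CpGs of Dlgap3, Dlg4, Nrxn3 and Camk2a. Dlgap3 is high in aged ENR mice, Dlg4 is lower in both aged groups, and the Nrxn3 and Camk2a points sit mostly at 0 or 100.

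Genes of the same machinery outside the 38 gave no adjusted call with limma either. Among other postsynaptic genes (12 promoters and 14 bodies tested), other presynaptic genes (21 and 19) and other synaptic adhesion genes (12 and 14), 0 were called in aging or ENR after adjustment. At an unadjusted p under 0.05, promoters numbered 0, 1 and 0 in aging and 2, 3 and 1 in ENR, and bodies 0, 2 and 1 in aging and 0, 1 and 0 in ENR. As shares these were 0%, 4.76% and 0% of promoters in aging (5.2% of all genes) and 16.7%, 14.3% and 8.33% in ENR (4.4%), and 0%, 10.5% and 7.14% of bodies in aging (5.91%) and 0%, 5.26% and 0% in ENR (4.63%), each on 3 genes or fewer. Marker genes of granule neurons, pyramidal neurons, astrocytes, oligodendrocytes, microglia and endothelium (16 promoters and 20 bodies) gave 0 adjusted calls in either contrast. At an unadjusted p under 0.05 there were, in aging, 1 promoter (6.25%, Bcl11b) and 3 bodies (15%, Bcl11b, the myelin gene Mbp and the endothelial Pecam1), and in ENR 0 promoters and 1 body (5%, the pyramidal Wfs1). Bcl11b was listed with the pyramidal neurons but is also expressed by dentate granule neurons. Whether the cell mixture had a part in the differences above was not tested.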

How the data were processed

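Genomic DNA of micro-dissected dentate gyrus was profiled by RRBS, in 1 library per mouse. Per the study's methods, reads were trimmed with Trim Galore and cutadapt, reads with a detected adapter were cut by 2 further bases, reads were mapped to mm10 with Bismark, and methylKit kept cytosines with at least 10 reads. The submitters' processing notes name Trim Galore 0.4.0, cutadapt 1.8.1, Bismark 0.16.1 and methylKit 1.5.2, and the versions of Trim Galore and Bismark differ from those in the methods. The authors deposited a table with the percent of methylated reads per cytosine, strand and mouse, without read numbers, in which each row is covered in 3 or more mice per group. Depth is therefore unknown, and no counting interval could be given. Duplicate reads of 1 molecule cannot be recognized in RRBS, and the filter on reads leaves different CpGs in each mouse.

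Rows were joined to genes by GENCODE M21 (GRCm38). Per gene and region, the deviations of a mouse from the mean of each CpG were averaged over its covered CpGs (at least 4) and added to the mean level. Genes for which each group had 5 or more such mice were fitted with limma 3.58.1 (R 4.3.3), with group means over all 24 mice as in the design of the study, and no covariate. The 3 contrasts were tested over all genes of a region and over all rows for single CpGs, with Benjamini-Hochberg adjustment and a threshold of 0.05, for single CpGs with a difference over 25 points as well. Exact permutation tests over mice (two-sided) were run in Python 3.11.15 with numpy 2.4.6, and their p-values are unadjusted. The code was tested on simulated data. Named with full values were members past the threshold, in each region the 3 members with the smallest p in aging and in ENR, the 3 highest and lowest promoters, the 3 CpGs per contrast with the smallest p among those with at least 5 mice per group, and members whose level stood apart in their role. The members and lists were chosen with earlier results of these data known. Mice are separate animals per the labels, and no batch was named in them. Per the study's methods, mice in ENR shared an enclosure as a group, and standard mice were kept in smaller groups per cage. The cage of each mouse is not named, so ENR and a shared enclosure cannot be told apart. The p-values treat the mice as independent. Sequences were read from the GRCm38 genome, that of Pclo from the coordinates of the RefSeq promoter table. Alternatives changed the mean, scale, filters, weights, promoter window, strands, gene set, variance model and mice, and added the replicate number as a block.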

Additional observations from a re-analysis of the deposited data

Results flagged for a closer look

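Within groups of 4 to 10 mice, 48 sets of values of the named genes and CpGs were searched for a mouse whose gap to the others was large against the range of its group. For values without ties, chance alone gives about 1 such set in 20, and 3 were found. All 3 are single CpGs with the other values at or near 0 or 100%, for which that rate does not hold. At the intronic CpG of Camk2a, young STD replicate 5 was at 50%, while the other 5 covered young mice were at 0%. At the CpG of Nrxn3 at 88984821, aged STD replicate 8 was at 95.1%, while the other 4 covered mice of its group were at 100%, and aged ENR replicate 3 was at 100%, while the next highest of its group was at 9.09% and the median was 0%.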

How the results depend on the processing

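Of 707 alternative values for 24 results, 694 kept their direction and side of the threshold (counts: within 1.5 times). The 694 include the exact permutation test of each named gene, which repeats the main difference and was counted as kept by construction. No gene of the 38 was called with limma under any alternative in any contrast, leaving out each mouse in turn included (0 to 0 calls), and the lowest adjusted p was 0.127, for the body of Rph3a in aging without young STD replicate 7. The aging difference of Rph3a ran from -25.9 to -21.3 points when single mice were left out, and without aged STD replicate 5 no adjusted call changed, but the members' bodies with an unadjusted p under 0.05 in ENR went from 3 to 0. Over all alternatives these ran from 0 to 5 (1 with the plain mean). The promoter difference of Syt3 in aging reversed to -2.68 points with a window of 2 kb, and the cause was not tested. The counts of CpGs over 25 points in aging, ENR and aged ENR against young depend on coverage and threshold by construction: they were 56, 46 and 49 with at least 5 mice per group, 0, 1 and 1 with all 8 mice per group, and 910, 851 and 845 at 10 points.

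With the replicate number as a block, 0 genes were called, but 3, 5 and 4 single CpGs were, in aging, ENR and aged ENR against young (0.115%, 0.192% and 0.154%, beside 0.0724%, 0.0638% and 0.0598% of all rows in the same fit). These CpGs (in Dlgap1, Nrxn2, Unc13a, Syt1 and Shank1) had 10 or 11 covered mice and 2 or 3 residual degrees of freedom. Same-numbered mice were little alike: over promoters and bodies, correlations of their deviations ran from -0.07 to 0.10. In 1 comparison of groups 1 of 8 pairs was over 0.1, and 0 were in the others. The best match of a mouse had its own number in 3 of 8 mice for young STD with aged STD promoters. This was 0 for young STD with aged ENR and 3 for aged STD with aged ENR promoters, and 3, 0 and 2 for bodies. These values do not settle whether the numbers pair some mice weakly. Leaving out body CpGs near the start of any gene was added after seeing the data and gave 0 calls. Unknown read depth and the few CpGs shared by all mice limit what single CpGs can show.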
